A study of Mus musculus with 5 samples.

Results

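The peaks described here are 650 peak calls at the promoters of 637 named genes in a pull-down of Nr1d1 from mouse Th1 cells. None of them overlapped a peak of the IgG mock. They were taken from the deposited annotation of the ChIP-specific peaks as the rows of class promoter-TSS, leaving out genes whose symbol is Gm with a number or ends in Rik, which are names of predicted genes and cDNA clones. They made up 4.49% of the 14469 annotated ChIP-specific peaks and 81.4% of the 799 promoter peaks among them. The same rule gave 743 promoter peaks at 716 named genes in the list of the IgG mock, out of 17110 annotated IgG peaks, and these served as the background. Before the overlap with IgG was removed, the Nr1d1 list had 1021 such promoter peaks, of which 371, or 36.3%, overlapped an IgG peak and are not members.

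Nr1d1, also called REV-ERBα, is a nuclear receptor that binds heme and represses transcription. It binds DNA at the half-site AGGTCA with an A/T-rich flank, the RORE, or at a pair of half-sites 2 bases apart, the RevDR2, and recruits the NCoR-HDAC3 corepressor. It is known for repressing Bmal1 in the circadian clock and genes of lipid metabolism, and it also occupies chromatin through other factors bound there. Th1 cells are the helper T cells that make interferon gamma under the factor T-bet.

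All libraries came from wild-type C57BL/6 mice aged 4 to 6 weeks, as naive CD4 T cells of secondary lymphoid organs. The cells were activated with antibodies to CD3 and CD28, cultured with IL-12, IFNγ and an antibody to IL-4, and taken after 3 to 4 days. No genotype, treatment or time is labelled as different between the libraries. Age and day of harvest are given as ranges shared by all, not per library. The 3 Nr1d1 libraries were compared with 1 IgG mock, and 1 input library served for peak calling of both. The antibody label names Nr1d1 for all 5 libraries, so the groups follow the titles. The lists cover each antibody as a whole and hold no height, fold or read count, so the 3 ChIP libraries could not be told apart and the depth behind a peak is unknown. The tests below compare lists of peaks, not cells or mice, and intervals cover the counting of peaks only. Peaks do not show expression, so the Th1 label could not be checked. None of the 14 marker genes of Th1, B, myeloid, NK or CD8 cells had a member peak (0 of 14). As 2.45% of all named RefSeq genes had one, this count says nothing about the markers.

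The DNA under 6 member peaks shows the range of promoters in the set. Each stretch is the part of the peak that lies upstream of the RefSeq start and outside RefSeq genes, within the 250 bases before the start, read 5′ to 3′ on the strand of the gene from RefSeq's GRCm38 (mm10) windows. Capitals mark each CpG dinucleotide. Hoxa13 (chr6:52260881-52261130, minus strand), Serpine2 (chr1:79858666-79858749, minus) and Dner (chr1:84696401-84696471, minus) are shown because they are among the 5 strongest members. Kdm7a (chr6:39206774-39207023, minus) had the most CpG, 56, of the 65 members with such a stretch of at least 40 bases. Rpl34 (chr3:130730401-130730524, minus) is the 1 ribosomal protein gene in the set, and Gpr112 (chrX:56894101-56894199, plus) is a promoter with 0 CpG.
Hoxa13: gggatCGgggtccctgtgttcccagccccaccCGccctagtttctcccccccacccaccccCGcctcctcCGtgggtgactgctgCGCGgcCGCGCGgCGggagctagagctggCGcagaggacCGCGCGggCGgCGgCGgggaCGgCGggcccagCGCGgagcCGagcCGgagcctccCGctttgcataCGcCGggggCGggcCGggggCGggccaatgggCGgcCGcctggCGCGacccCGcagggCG
Serpine2: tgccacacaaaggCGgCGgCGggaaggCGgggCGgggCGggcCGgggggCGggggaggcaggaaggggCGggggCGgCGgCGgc
Dner: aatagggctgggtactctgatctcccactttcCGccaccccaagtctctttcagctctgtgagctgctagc
Kdm7a: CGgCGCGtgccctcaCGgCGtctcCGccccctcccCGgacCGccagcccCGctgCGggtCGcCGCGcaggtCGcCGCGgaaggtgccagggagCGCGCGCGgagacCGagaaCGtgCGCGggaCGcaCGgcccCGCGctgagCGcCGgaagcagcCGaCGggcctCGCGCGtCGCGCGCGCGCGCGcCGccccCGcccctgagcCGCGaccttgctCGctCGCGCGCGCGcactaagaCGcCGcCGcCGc
Rpl34: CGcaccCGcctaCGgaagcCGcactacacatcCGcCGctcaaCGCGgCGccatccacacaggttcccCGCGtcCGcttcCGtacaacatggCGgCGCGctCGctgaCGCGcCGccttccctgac
Gpr112: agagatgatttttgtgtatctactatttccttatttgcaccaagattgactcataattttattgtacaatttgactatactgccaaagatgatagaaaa
Hoxa13 had 35 CpG in 250 bases and 80.0% G or C, and Serpine2 had 12 CpG in 84 bases. Both stretches held 5 copies of the GC box GGGCGG, the site of Sp/KLF factors. Dner had 1 CpG in 71 bases at 54.9% G or C, and Gpr112 had 28.3% G or C. The median over the 65 stretches was 75.6% G or C, and 5 of them held no CpG.

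In FDR, the false discovery rate the authors deposited for each peak, the members reached from 0, as printed to 6 decimals, to 0.0492 with a median of 0.0131. The median of the IgG promoter peaks was 0.00283. Only 5 members had an FDR printed as 0, against 205 of the IgG promoter peaks, or 27.6%. An FDR under 0.01 was given to 206 of 650 members (31.7%) and to 486 of 743 IgG promoter peaks (65.4%), a difference of −33.7 percentage points (95% interval −38.5 to −28.6, adjusted p = 1.19e-35, two-sided Fisher's exact test, adjusted over 9 shares). Over all annotated peaks the shares were 29.1% for the ChIP-specific and 53.5% for the IgG list. The removal of shared peaks was applied to the ChIP list and not to the IgG list. The 371 shared ChIP promoter peaks had a median FDR of 0.0088, and 55 of them had an FDR printed as 0. Against the 360 IgG promoter peaks that overlapped no ChIP peak, the difference was −23.6 points (adjusted p = 3.02e-12, Fisher's exact test). The ChIP list rests on 3 libraries and the IgG list on 1, with depths unknown, so how far FDRs of the 2 lists can be compared was not tested.

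Member peaks were 100 to 650 bp long with a median of 200, against 225 for the IgG promoter peaks. Longer than 250 bp were 142 members (21.8%) and 253 IgG promoter peaks (34.1%), a difference of −12.2 points (−16.8 to −7.50, adjusted p = 2.34e-06, Fisher's exact test). Over all annotated peaks the shares were 18.8% and 22.6%. This difference did not hold against the 360 IgG promoter peaks without a ChIP overlap, of which 19.4% were longer than 250 bp (difference 2.40 points, adjusted p = 0.424, Fisher's exact test), and the 371 shared ChIP peaks had a median of 275 bp.

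**Figure D1:**
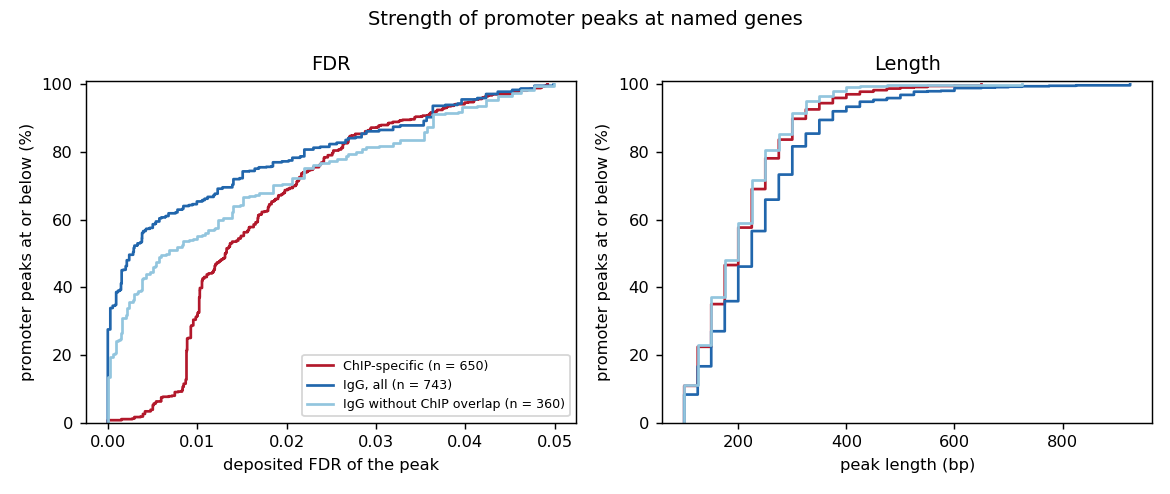
Cumulative share of promoter peaks at named genes (y axis, %) by deposited FDR (left) and by length in bp (right). The 650 ChIP-specific peaks lie below both IgG curves up to an FDR of 0.01, with 31.7% under it against 65.4% of all IgG promoter peaks, while their lengths follow those of the 360 IgG peaks without ChIP overlap.

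The 5 members with an FDR printed as 0 lay at Dner (chr1:84696401-84696874, 475 bp), Lrrc49 (chr9:60598776-60599149, 375 bp), Mapkapk5 (chr5:121534451-121534749, 300 bp), Serpine2 (chr1:79858451-79858749, 300 bp) and Hoxa13 (chr6:52260876-52261149, 275 bp). Dner is a transmembrane ligand of Notch in neurons, Mapkapk5 a kinase downstream of p38-type MAP kinases, Serpine2 a secreted inhibitor of serine proteases, and Hoxa13 the Hox factor of the digits and the urogenital tract. The Serpine2 and Hoxa13 peaks covered the annotated start, with their centres 35 bp downstream and 132 bp upstream. The Dner peak was centred 416 bp upstream and did not cover it. The next members were Jag1, another Notch ligand, and Plxnb1, a semaphorin receptor, both at an FDR of 0.00152. They were followed by Pax2 (FDR 0.00274), a paired-box factor of kidney development, Sumo3 (0.00297), a ubiquitin-like modifier, Ryr3 (0.00297), a calcium release channel, and Rhobtb1 (0.00297), an atypical small GTPase. The longest member, at 650 bp, was Gabre (FDR 0.00393), a GABA receptor subunit on the X chromosome. The first 5 IgG promoter peaks in the same order lay at Nrg3, Pou4f1, Cdh2, Fam19a5 and Papd7. They are the longest, at 700 to 925 bp, of the 205 that tie at an FDR printed as 0.

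Within the promoter class, member peaks gathered at the start site. The median distance of the peak centre from the annotated start was −39 bp, with negative values upstream, and the range was −1000 to 819. Within 100 bp lay 336 peaks and within 250 bp 475, while 77 were centred more than 500 bp upstream and 76 more than 100 bp downstream. The start itself was covered by 324 members (49.8%) and by 408 IgG promoter peaks (54.9%), a difference of −5.07 points (−10.3 to 0.188) that missed the threshold (adjusted p = 0.108, Fisher's exact test). Centred upstream were 392 members (60.3%) and 453 IgG promoter peaks (61.0%), a difference of −0.661 points (adjusted p = 0.929, Fisher's exact test). The choice of the promoter class shapes these shares. Among peaks of any class within 1 kb of the start, 35.9% of ChIP-specific and 36.7% of IgG peaks were centred upstream. The start was covered by 32.8% and 36.2% of them. The promoter class of the annotation ends near 1 kb upstream. The outermost member was RP23-397I12.1 at −1000 bp, and the nearest peak beyond it was Nefm at −1004 bp, classed as intergenic. Among the members centred closest to the start were Pax6 and Cadps2, both at 0 bp, Ctxn1 at −1 bp and Eif5a at −2 bp.

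**Figure D2:**
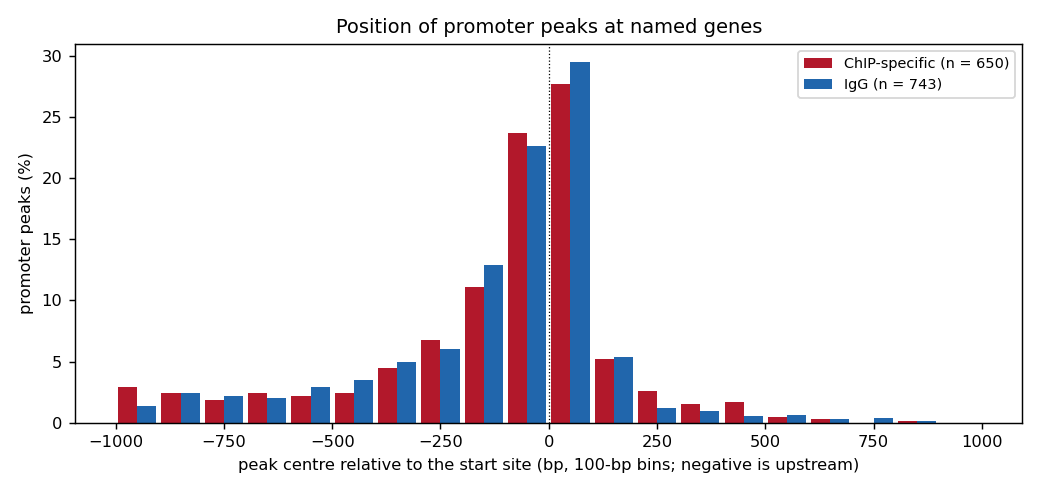
Share of promoter peaks at named genes (y axis, %) by the position of the peak centre relative to the annotated start site (x axis, bp, in bins of 100 bp). The bins on each side of the start held 23.7% and 27.7% of the 650 ChIP-specific peaks and 22.6% and 29.5% of the 743 IgG peaks.

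An IgG peak lay close by at some members although none overlapped, and more often than at other ChIP-specific peaks. Within 1 kb of 52 members (8.0%, Wilson interval 6.15 to 10.3) there was an IgG peak, against 2.93% of all annotated ChIP-specific peaks and 2.69% of the 13819 that are not members. The difference from these was 5.31 points (3.44 to 7.66, adjusted p = 1.34e-10, Fisher's exact test, adjusted over 7 tests added after the values had been seen). Within 250 bp the shares were 3.54% and 0.731% (adjusted p = 1.38e-08, Fisher's exact test). At 5 kb they were 12.9% and 11.2%, and the difference of 1.68 points (−0.738 to 4.53) missed the threshold (adjusted p = 0.184, Fisher's exact test). The closest pair was at Tunar, a noncoding RNA gene of neural cells, with a gap of 27 bp. Gaps were 102 bp at Gabre and at Crebbp, a histone acetyltransferase, 227 bp at Hoxa13, 277 bp at Irx2, 452 bp at Sox2, 602 bp at Jag1 and 827 bp at Pax2. Of the 5 strongest members Hoxa13 thus had an IgG peak within 1 kb, and the gap at Dner was 97527 bp. Whether these neighbouring calls are parts of 1 enriched region was not tested.

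**Figure D3:**
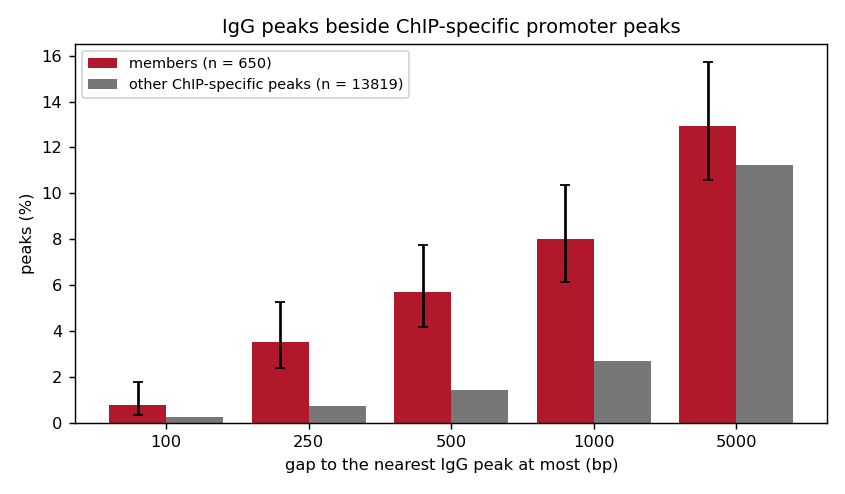
Share of peaks (y axis, %) with an IgG peak no farther than the gap on the x axis (bp), for the 650 members with 95% Wilson intervals as error bars and for the 13819 other ChIP-specific peaks. The members lie above the others up to 1000 bp, where they reach 8.0% against 2.69%, and are close to them at 5000 bp.

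At 40 genes a member peak and an IgG promoter peak were both called, which is 6.28% of the member genes and 5.59% of the IgG genes. Over all named RefSeq genes, 2.80% had an IgG promoter peak and 2.45% a member peak. Among the 40 genes were Hoxa13, Pax2, Gabre, Irx2, Rgs7, Slc22a23, Ccnl1, Nr3c2, Nav2, Ajap1, Fmr1, Crebbp, Gli3 and Cdh2. Any IgG peak, at the promoter or elsewhere, was assigned to 196 member genes (30.8%), and to 1881 of the 3801 other named genes with a ChIP-specific peak (49.5%). Those other genes are in the list through peaks outside the promoter class. Gene length was not matched, so the 2 shares do not compare like genes. Within the ChIP-specific list, 200 of 637 member genes (31.4%) had a further peak, against 312 of 716 genes (43.6%) within the IgG list. This difference of −12.2 points (−17.2 to −7.02, adjusted p = 1.23e-05, Fisher's exact test) is between lists of 14469 and 17110 peaks. Peaks overlapping IgG had been removed from the ChIP list, which held 19584 before, and nothing from the IgG list. Further peaks were thus lost on the ChIP side only, and the test cannot separate this from a difference between the genes. Csmd1, a long gene for a complement-regulating membrane protein, had 18 ChIP-specific peaks, and Ajap1 and Tenm2 had 11 each. At 13 genes 2 member peaks fell at the promoter, among them Caprin1, an RNA-binding protein, Fmr1, the gene of fragile X syndrome, Nr3c2, the mineralocorticoid receptor, Dlg5, Vangl1 and Tshz2.

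A RefSeq promoter window, the 250 bases before to 50 after a gene's start, was found for 468 members (72.0%) and 541 IgG promoter peaks (72.8%). As this is under 80%, a check of base composition is void for the whole sets, and the values below describe promoters with a window only. Windows of chromosome 18 were not used here. The window used was that of the gene's RefSeq start nearest to the peak, at any distance, so it can belong to another start than the annotated one. Peaks overlapped the window in 253 of the 468 members and 320 of the 541 IgG promoter peaks. The median G or C content was 66.7% in member windows, 67.7% in IgG windows and 52.7% in all 32851 windows. A CpG observed/expected ratio of at least 0.6, a usual mark of CpG islands, was found in 343 member windows (73.3%) and 383 IgG windows (70.8%), against 35.8% of all windows. The difference between the sets was 2.50 points (−3.07 to 7.99, adjusted p = 0.599, Fisher's exact test). Against the IgG promoter peaks without a ChIP overlap, with 161 of 258 windows CpG-rich (62.4%), it was 10.9 points (3.83 to 18.04, adjusted p = 0.00951, Fisher's exact test).

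Within the members, those with a CpG-rich window more often covered the start. It was covered by 196 of 343 (57.1%) against 49 of 125 (39.2%) of those with a CpG-poor window, a difference of 17.9 points (7.71 to 27.5, adjusted p = 0.00137, Fisher's exact test over the same 7 added tests). The IgG promoter peaks differed in the same direction by 13.1 points (3.89 to 22.1, adjusted p = 0.00796, Fisher's exact test). Whether the 2 differences differ was not tested, and windows that the peak did not overlap were included. The share with an FDR under 0.01 was 31.8% in CpG-rich and 31.2% in CpG-poor members. Of all CpG-rich windows, 252 of 11765 (2.14%) were overlapped by a member peak, and of the CpG-poor ones 53 of 21086 (0.251%). For IgG promoter peaks these shares were 2.92% and 0.313%.

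**Figure D4:**
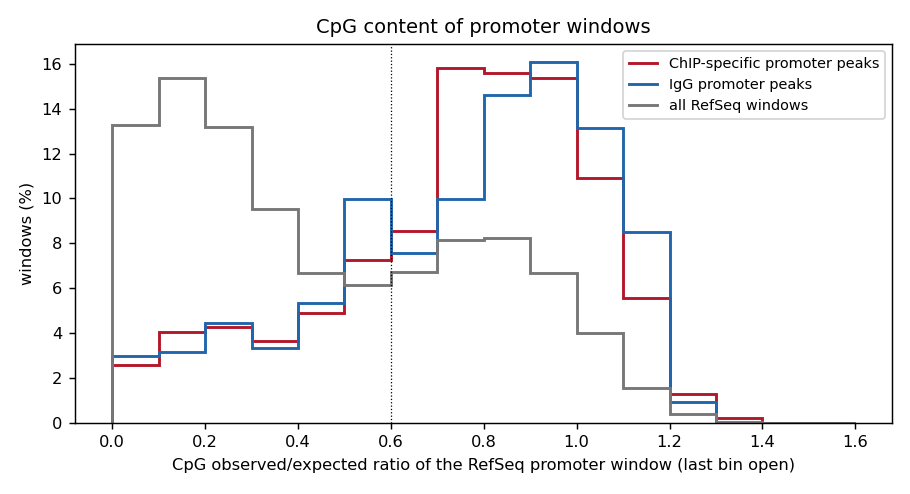
Distribution of the CpG observed/expected ratio (x axis, bins of 0.1, dotted line at 0.6) over RefSeq promoter windows, as a share of windows (y axis, %). The windows of the ChIP-specific and the IgG promoter peaks lie mostly above 0.6 (73.3% and 70.8%), while 35.8% of all windows do.

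The half-site AGGTCA, on either strand, was present in 47 of 468 member windows (10.04%) and 55 of 541 IgG windows (10.2%), a difference of −0.124 points (−3.84 to 3.69, adjusted p = 1, Fisher's exact test). All windows had it in 16.3%, and all CpG-rich windows in 9.46%, beside 8.16% of the CpG-rich member windows and 6.53% of the CpG-rich IgG windows. Of the windows that the peak overlapped, 7.91% of 253 for members and 8.75% of 320 for IgG had it. The full RORE core was in 0 of 468 member windows, which allows a share of up to 0.814% by the Wilson limit, and in 0.219% of all windows. RevDR2 was in 0 member windows and in 0.00913% of all. These shares say only that the letters are not in these windows.

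In 9 members AGGTCA lay inside the peak, as far as the windows reach. Only the part of a peak within its window was searched, which leaves out all but 253 of the 650 members. Peak bases outside the windows were not read, so 9 is not a count for whole peaks. The 9 sites are shown with 12 bases on each side where the window holds them, on the strand of the gene. Capitals mark the half-site as AGGTCA or as its reverse complement TGACCT.
Gfap: ctctgggtacagTGACCTcagtggggtgag
Sugct: tgagggggcctaAGGTCAaggagggaggtc
Amotl2: tccagcgcgggcTGACCTagaggctgcgca
Sox2: gcgccgTGACCTgttgctgaaaac
Eif5a: ggcgagcggaccAGGTCAagtcagtgcgtt
Caprin1: cacccctggcccTGACCTttgtccctctcg
Cnr1: ccgcccggcgcgTGACCTccagtgaggtcc
Gjb2: tggggtggggagTGACCTaggctccaggag
Otud3: gctaccaccacgTGACCTggctgccaggcg
The lines come from Gfap (chr11:102897268-102897297, minus strand), the intermediate filament of astrocytes, Sugct (chr13:17694763-17694792, minus), Amotl2 (chr9:102717761-102717790, plus), a regulator of YAP at cell junctions, Sox2 (chr3:34649745-34649768, plus), a factor of pluripotent and neural progenitor cells. The others are Eif5a (chr11:69921171-69921200, minus), a translation factor, Caprin1 (chr2:103797279-103797308, minus), Cnr1 (chr4:33924244-33924273, plus), a cannabinoid receptor, Gjb2 (chr14:57104876-57104905, minus), a gap junction protein, and Otud3 (chr4:138913980-138914009, minus), a deubiquitinase. The half-site began 85 bases before the RefSeq start in Gfap, 15 in Sugct, 31 in Amotl2, 244 in Sox2, 103 in Eif5a, 218 in Caprin1, 8 in Cnr1, 191 in Gjb2 and 29 in Otud3. The peaks had FDRs of 0.0088 at Gfap and Sugct, 0.00885 at Amotl2, 0.00887 at Sox2, 0.00956 at Otud3, 0.0163 at Eif5a, 0.0203 at Cnr1 and 0.0366 at Gjb2. Caprin1 has 2 member peaks, and the one with the half-site had an FDR of 0.0237. The windows of Otud3, Dner and Sumo3 held 2 half-sites each, of which 1, in Otud3, lay inside the peak.

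For 7 other motifs the shares in members, IgG promoter peaks and all windows are given side by side, with no test. The GC box GGGCGG was in 72.0% of member windows, 69.5% of IgG windows and 35.7% of all. The ETS site CCGGAAG was in 11.8%, 9.80% and 8.86%, the E-box CACGTG, bound by CLOCK-BMAL1 and MYC, in 10.9%, 9.06% and 7.15%, and CCAAT in 28.2%, 28.1% and 37.4%. The TATA box TATAAA was in 5.98%, 4.81% and 13.6%. The AP-1 site TGANTCA was in 2.56%, 4.25% and 7.81%, and the T-box site AGGTGTGA, the motif of T-bet, in 0.641%, 0.370% and 1.28%. Among CpG-rich windows the order was another for some motifs. There the GC box was in 85.1% of member, 82.2% of IgG and 72.3% of all windows, and CCAAT in 25.7%, 22.5% and 35.7%. The ETS site was in 15.2%, 12.3% and 18.7%, the E-box in 13.4%, 9.14% and 11.3%, and the AP-1 site in 1.17%, 3.92% and 3.46%. Both strands were searched, and motifs may overlap one another.

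Among core clock genes, 2 of 25 had a member peak and 0 an IgG promoter peak, against 2.45% and 2.80% of all 24893 named RefSeq genes. Bhlhe40, a repressor of clock genes that T cells also use, had a 225-bp peak centred 792 bp upstream (FDR 0.0183). No member of the NCoR-HDAC3 list of 10 genes had a member peak, and Tbl1xr1 had an IgG promoter peak. Of 27 lipid and gluconeogenic targets of REV-ERB, Ppara, the fatty acid-sensing receptor, had a member peak (FDR 0.0158, centred 71 bp upstream) and Lpl an IgG promoter peak.

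No Th1 gene of 28, no T cell receptor or costimulation gene of 32 and no interferon response gene of 63 had a member peak. In these 3 lists 0, 1 and 1 genes had an IgG promoter peak. As 2.45% of all named RefSeq genes had a member peak, counts of 0 in lists of this size say little. Tgfb1, the cytokine that induces regulatory T cells, was the 1 of 28 genes of other helper subsets with a member peak (FDR 0.0179, centred 665 bp upstream). In the same list 3 genes, Ahr, Ikzf2 and Maf, had an IgG promoter peak. Of 236 cytokine, chemokine and receptor genes 4 had a member peak and 2, Lifr and Tnfrsf11b, an IgG promoter peak. Those with a member peak were Tgfb1, Tnfrsf1a, the main TNF receptor (FDR 0.00928), Cxcl12 (0.0172) and Il11ra2 (0.0242). Of 28 genes for glycolysis, glucose uptake and mTOR, 3 had a member peak and 0 an IgG promoter peak. Mtor, the growth-controlling kinase, had a peak centred 87 bp downstream of its start (FDR 0.0149). Ldhb, a lactate dehydrogenase subunit, had one 455 bp upstream (FDR 0.0211), and Slc2a3, a glucose transporter of T cells and neurons, one 47 bp upstream (FDR 0.0343). In these small lists a single gene moves the share by several percent.

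Among the lists of more than 100 genes, developmental genes had the largest shares. Over all named RefSeq genes 2.45% had a member peak and 2.80% an IgG promoter peak. Of 184 homeobox, Pax and Hox factors 15 had a member peak (8.15%) and 19 an IgG promoter peak (10.3%), 4 of them both. Hoxa13 and Pax2 led, followed by Irx1 (FDR 0.00478), Irx3 (0.00837), Irx2 (0.00849) and Pbx3 (0.0088). Of 192 developmental ligands and guidance genes 16 had a member peak (8.33%) and 17 an IgG promoter peak, with Dner, Jag1, Plxnb1, Sema6d (FDR 0.00416), Robo3 and Sfrp4 at the front. Nuclear receptors had 4 of 48 (8.33%), against 6 (12.5%) with an IgG promoter peak. Those with a member peak included Nr3c2 (FDR 0.00872), Ppara and the glucocorticoid receptor Nr3c1 (0.0252). Basic helix-loop-helix and bZIP factors had 6 of 143 (4.20%), against 8 (5.59%) with an IgG promoter peak. Among the 6 were Tcf3, an E protein of lymphocytes (FDR 0.0102), Tfeb, which drives lysosomal genes (0.0102), and Cebpg (0.0239).

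Groups of general cell function are given by their count of genes with a member peak and then with an IgG promoter peak. Over all named RefSeq genes the shares were 2.45% and 2.80%. Chromatin and DNA methylation regulators had 17 of 436 with a member peak and 22 with an IgG promoter peak. Phf6 (FDR 0.00749), Kdm7a, a histone demethylase (0.00928), and Dnmt3a, a DNA methyltransferase (0.01), all had peaks centred within 100 bp of the start. Ubiquitin and proteasome genes had 23 of 588 against 24, led by Sumo3, Usp24 (FDR 0.00393) and Fbxo9 (0.00597). Kinases and phosphatases had 20 of 538 against 31, led by Mapkapk5 and Mast2 (FDR 0.00393). Adhesion, matrix and protease genes had 24 of 566 against 19, with Serpine2, Ctnna2, Ctnnd2, Ctnnb1 (β-catenin, FDR 0.00928) and Itga6 among them. Ion channels and neurotransmitter receptors had 13 of 336 against 24, led by Ryr3 and Gabre. The cell cycle and DNA repair group had 6 of 266 against 11, which included both E-type cyclins, Ccne1 (FDR 0.0135) and Ccne2 (0.0133), and the factors E2f1 and E2f3. Ribosomal protein genes had 1 of 503 against 6, in a list that takes in pseudogenes with such symbols. G protein-coupled receptors, mostly olfactory, had 10 of 2314 against 19. Of the 637 member genes 259 (40.7%) were in at least 1 of the 30 lists.

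**Figure D5:**
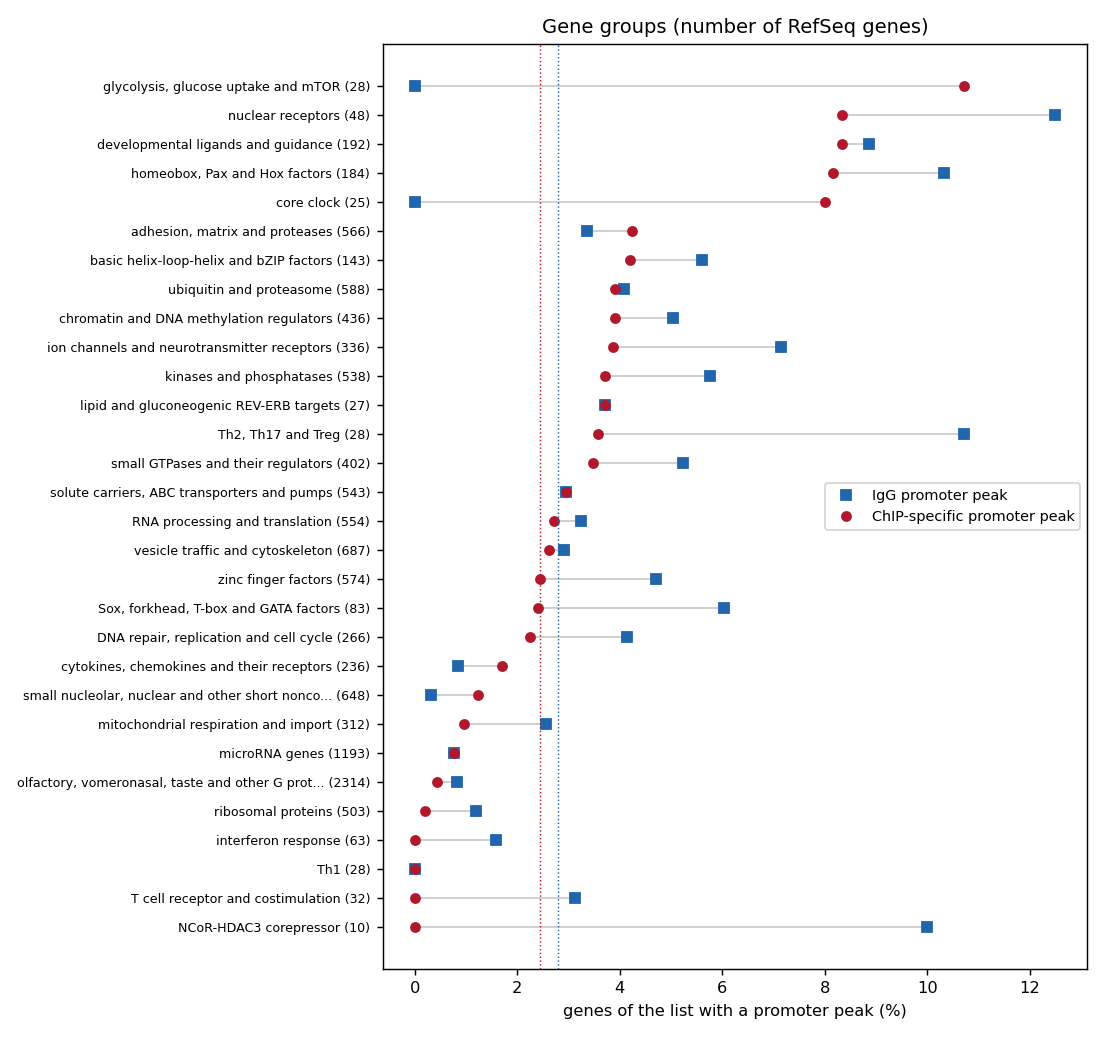
Share of the RefSeq genes of each list (y axis, list size in parentheses) with a ChIP-specific promoter peak (circles) and with an IgG promoter peak (squares), in % (x axis). Dotted lines mark the shares over all named RefSeq genes, 2.45% and 2.80%. Homeobox factors and developmental ligands lie above these lines in both lists.

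Gene types cover only named genes matched in RefSeq, so they say nothing about the Gm and Rik genes left out of both lists. Most members with a known type, 581 of 621 (93.6%), were at protein-coding genes, against 700 of 723 IgG promoter peaks (96.8%). The difference was −3.26 points (−5.71 to −0.979, adjusted p = 0.0139, Fisher's exact test). It lost significance against the IgG promoter peaks without a ChIP overlap (−3.01 points, adjusted p = 0.119) and among peaks with an FDR under 0.01 (−4.55 points, adjusted p = 0.0726, both by Fisher's exact test). Of 648 short noncoding RNA genes of RefSeq 8 (1.23%) had a member peak and 2 (0.309%) an IgG promoter peak. Over all named RefSeq genes these shares were 2.45% and 2.80%. Of the 8 member peaks 7 covered the start. The 8 genes included Rn7sk (chr9:78175251-78175649, FDR 0.00515), whose RNA holds back the elongation factor P-TEFb, Rpph1 (chr14:50807501-50807799, FDR 0.00749), the RNA of RNase P, and Rny1 (FDR 0.0366), a Y RNA. The other 5 carried n-R5s names, of which RefSeq types n-R5s2, n-R5s104, n-R5s111 and n-R5s122 as ribosomal RNA and n-R5s7 as a pseudogene. The peaks at n-R5s104, n-R5s111 and n-R5s122 lay within 30.6 kb on chromosome 8. A further 4 members, n-R5s176, n-R5s180, n-R5s182 and n-R5-8s1, had no match in RefSeq, and neither had the IgG promoter peak at n-R5s213. Outside this list, 1 IgG promoter peak was at a gene typed as RNase P RNA. Ribosomal RNA genes are a multigene family, so the copy that gave the reads is uncertain, and the copies were not compared here.

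In 9 members the gene was a microRNA, as in the IgG set, and no member peak overlapped the hairpin. Each count is 0.754% of 1193 microRNA genes, beside 2.45% and 2.80% of all named RefSeq genes. The annotated start of these genes is the 5′ end of the hairpin. Distances below are therefore not from a mapped start of transcription. Mature sequences of 5 are given from RefSeq, as RNA, with the seed, bases 2 to 8, in capitals, because the seed defines the family of each microRNA.
let-7i-5p: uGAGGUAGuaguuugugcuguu
miR-34a-5p: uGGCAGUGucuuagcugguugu
miR-203-3p: gUGAAAUGuuuaggaccacuag
miR-18a-5p: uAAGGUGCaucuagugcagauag
miR-433-3p: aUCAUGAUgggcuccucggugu
The 5 seeds differ from each other. The peak of Mirlet7i, of the let-7 family that restrains growth, had an FDR of 0.0188 and was centred 289 bp upstream. Mir34a, a target of p53, had an FDR of 0.00928 and a centre 267 bp upstream, and Mir203, of the epidermis, an FDR of 0.00871 and 280 bp. Mir18, of the growth-promoting miR-17-92 cluster, had an FDR of 0.0301 and was centred 51 bp upstream. Mir433, from the imprinted Dlk1-Dio3 region, had an FDR of 0.00887 and lay 215 bp upstream.

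Members on the X chromosome numbered 46 (7.08%), against 56 IgG promoter peaks (7.54%, difference −0.460 points, adjusted p = 0.929, Fisher's exact test), while X held 10.3% and 11.0% of all annotated peaks of the 2 lists and 4.22% of the promoter windows of named RefSeq genes, without chromosome 18. Besides Gabre these included Fmr1, Phf6, Slc25a5 and Gpr112. Another RefSeq gene started within 1 kb of 97 members (14.9%) and 112 IgG promoter peaks (15.1%). Starts on both strands, as at divergent promoters, lay within 1 kb of 65 members (10%) and 92 IgG promoter peaks (12.4%), so a peak there cannot be given to 1 gene.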

How the data were processed

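ChIP-seq libraries of Th1 cells (3 Nr1d1, 1 IgG mock, 1 input) were processed by the authors with BWA and HOMER on mm10 (no versions stated), per the submitters' processing notes. Not given in the sources used here are the peak caller, its filters and the way the 3 ChIP libraries were joined. The deposited q-value of a peak is an FDR printed to 6 decimals, always under 0.05. The deposited score of the HOMER tables equals the peak length, a multiple of 25 bp. Depth was not given, so precision rests on the number of peaks. No other column of per-sample values was left unused (0).

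The members and gene lists were chosen with earlier results of these data known, and exclusions from the gene lists were made after names were seen. Shares of peaks (of genes, for further peaks) were compared by Fisher's exact test (two-sided), adjusted by Benjamini-Hochberg over 9 shares with a threshold of 0.05, with Wilson intervals at 95% and Newcombe intervals of differences (Python 3.11.15, numpy 2.4.6, pandas 2.3.3, scipy 1.17.1). The test was tried on simulated data. A further 7 tests were added after the values had been seen. Gene types, starts and promoter windows came from RefSeq on GRCm38.p6 by symbol, and gene lists count matched genes only. A peak covers the start where its deposited distance, taken from the peak centre, does not reach past the peak's edge. Named were the 20 strongest members by FDR and then length, the 10 nearest the start, genes with 2 member peaks or with peaks in both lists, up to 6 per gene list, those with 2 AGGTCA, the peaks at the promoter limit and the 5 strongest IgG peaks. Members with AGGTCA inside the peak, the genes set beside the IgG gaps, Kdm7a and Gpr112 as examples of CpG content, and further genes on X and with further peaks were named after their values were seen. Some genes that this rule names are not reported here.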

Additional observations from a re-analysis of the deposited data

How the results depend on the processing

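Alternatives changed the FDR limit, the IgG set, the chromosomes, the promoter definition and the motif or CpG limit, and 3 were added after the data had been seen (windows overlapped by the peak, for AGGTCA and for CpG, and CpG-rich windows only, for AGGTCA). Of the recomputed differences 50 kept direction and side of the threshold. Counting ChIP peaks with under 50% of their length in an IgG peak as members would give 702 in place of 650. Among peaks with an FDR under 0.01, the difference in peaks over 250 bp turned to 2.13 points, that in upstream peaks to 4.61, and that in protein-coding genes (−4.55) lost significance. Against IgG promoter peaks without ChIP overlap, the values were 2.40 for length, −3.01 for protein-coding genes (significance lost) and 10.9 for CpG-rich windows (significance gained). The AGGTCA difference of −0.124 turned to 1.04 points on autosomes, 2.17 for peaks of any class within 1 kb, 5.38 for GGTCA and 1.64 in CpG-rich windows. The CpG difference turned to −1.53 with a limit of 0.75 and to −0.0568 in windows overlapped by the peak. The causes were not tested. No paired analysis was possible because the lists cover each antibody as a whole, and for the same reason no replicate could be left out.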

Other observations

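Of the members, 21 carried the name of a genomic clone of the RP23 or RP24 libraries, against 11 of the IgG promoter peaks. Chromosome 2 held 57 members (8.77%) and 47 IgG promoter peaks (6.33%), and 9.21% of named RefSeq windows, which here leave out chromosome 18. Chromosome 7 held 40 members (6.15%) and 59 IgG promoter peaks (7.94%), and 9.86% of the windows. The 1 member on Y has no counterpart among the IgG promoter peaks.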
